A study of Mus musculus with 8 samples.

Results

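The T-box transcription factors described here were 8 genes, Tbx1, Tbx2, Tbx3, Tbx4, Tbx5, Tbx15, Tbx18 and Tbx20, picked by symbol out of 20943 genes with deposited values; all 8 were present and tested among 20807. They were measured by poly-A RNA sequencing in 8 tumors of mice, all labelled MPNST (malignant peripheral nerve sheath tumor), a sarcoma that arises in the Schwann cell lineage of nerves. The 3 PRC2 loss tumors carried Plp-CreERT with Nf1(f/f), Cdkn2a(f/f) and also Eed(f/f) alleles, and their tumor genotype is given as Nf1(-/-) and Cdkn2a(-/-) together with Eed(-/-). The 5 PRC2 wildtype tumors carried Plp-CreERT with Nf1(f/f) and Cdkn2a(f/f) alleles, and their tumor genotype is given as Nf1(-/-) with Cdkn2a(-/-). Nf1 and Cdkn2a inactivation, the tamoxifen-inducible Plp-CreERT driver, which is active in Schwann lineage cells and leaves other cells of the tumor unrecombined, and 0.4 mg tamoxifen given between day 0 and day 3 after birth were therefore common to both groups, and Eed inactivation was what set them apart. The ages at which tumors were taken are not given. The Eed protein belongs to the core of PRC2, the Polycomb complex that methylates histone H3, and the study asks what its loss does to these tumors. PRC2 loss tumor 1 was labelled as from a right paraspinal nerve and PRC2 loss tumors 2 and 3 as from the left and right sciatic nerves of animal number 7; wildtype tumors 1 and 2 share animal number 8, and wildtype tumors 3 and 4 share number 9. Only 2 PRC2 loss and 3 wildtype animal numbers thus stand behind the tests, and p-values that treat the tumors as independent are too small if tumors of one number come from one mouse.

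T-box factors bind DNA through a shared domain, the T-box, and set up organs and limbs in the embryo; some of them mainly repress and others mainly activate their targets. Many genes of this kind carry histone H3 lysine 27 methylation, the mark that PRC2 places, in cells where they are silent. Tbx2, Tbx3, Tbx4 and Tbx5 form one branch of the family and lie as linked pairs, Tbx2 beside Tbx4 and Tbx3 beside Tbx5, whereas Tbx1, Tbx15, Tbx18 and Tbx20 belong to another branch and lie singly. Values below are the deposited quantile-normalized log2 gene counts, so a step of 1 is a doubling on the authors' scale, and in bulk tumors fewer expressing cells and less RNA per cell cannot be told apart.

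Of the 8 T-box genes, 6 rose in PRC2 loss tumors, 0 fell and 2, Tbx3 and Tbx20, did not pass the test (limma, Benjamini-Hochberg adjusted over all genes, threshold 0.05), and none fell at an unadjusted p under 0.05 either. Over all genes tested, 16% were called higher, 19.6% lower and 35.7% in either direction. The median log2 difference was 2.80 over the 8 T-box genes and -0.12 over all genes tested. For the same 6 genes the groups did not overlap, with PRC2 loss on top, which held for 16.9% of all genes, while 0 of the 8 and 21.4% of all genes were apart in the other direction. A mean of 8.43, the median over all genes, was reached by 7 of the 8 in PRC2 loss and by 2 in wildtype tumors. When each tumor was centred on 15 housekeeping genes the median of all genes moved to 0.48 and the calls over all genes to 7685 higher and 1588 lower, against 3337 higher and 4087 lower without centring. Under that centring 7 of the 8 T-box genes were called higher, and each of the 6 above lay further above 0. Of the 15 housekeeping genes themselves, 9 were called lower in PRC2 loss and 0 higher without centring (1 higher at an unadjusted p under 0.05), with a median log2 difference of -0.76, so centring on them shifts every difference upward.

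**Figure D1:**
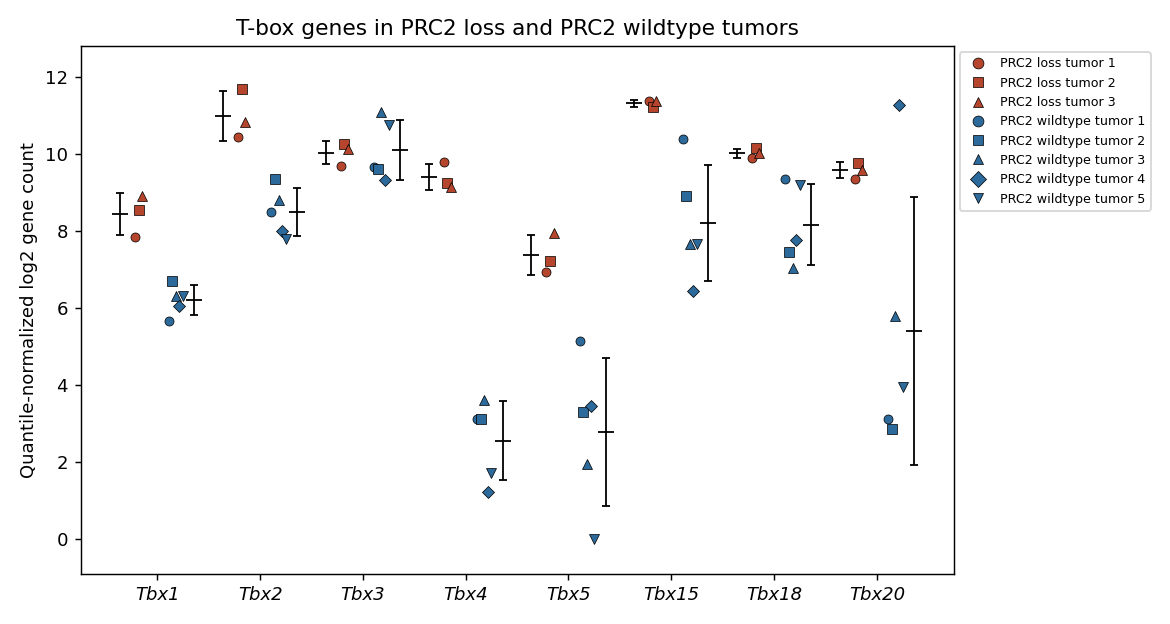
Quantile-normalized log2 gene count (vertical axis) of each T-box gene in every tumor, with PRC2 loss tumors in red left of PRC2 wildtype tumors in blue; bars give the mean and SD (n = 3 and n = 5). The Tbx4 values of the PRC2 loss tumors lie between 9.14 and 9.78 and those of the wildtype tumors between 1.23 and 3.62, while Tbx20 in wildtype tumor 4, at 11.27, is above all PRC2 loss tumors.

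The starts of Tbx1, Tbx4, Tbx18 and Tbx20, the 4 of the 8 genes with a window in the RefSeq table used, are printed to set the sequence at the start beside the expression values: Tbx4 had the widest gap between the groups, Tbx1 and Tbx18 had smaller rises, and Tbx20 was not called. Each is the RefSeq window of 300 bases on GRCm38.p6, with 250 bases before the transcription start and 50 after it, 5′ to 3′ on the strand of the gene, with each CpG dinucleotide in capitals. Tbx4 is chr11:85896515-85896814 (+ strand), Tbx1 is chr16:18590622-18590921 (- strand), Tbx18 is chr9:87731211-87731510 (- strand) and Tbx20 is chr9:24774254-24774553 (- strand).
Tbx4: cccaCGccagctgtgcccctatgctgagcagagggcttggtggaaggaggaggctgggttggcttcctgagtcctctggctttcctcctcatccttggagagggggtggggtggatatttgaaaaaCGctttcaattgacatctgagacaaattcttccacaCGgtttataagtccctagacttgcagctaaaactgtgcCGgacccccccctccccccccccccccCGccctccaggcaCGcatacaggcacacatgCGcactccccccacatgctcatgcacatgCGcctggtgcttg
Tbx1: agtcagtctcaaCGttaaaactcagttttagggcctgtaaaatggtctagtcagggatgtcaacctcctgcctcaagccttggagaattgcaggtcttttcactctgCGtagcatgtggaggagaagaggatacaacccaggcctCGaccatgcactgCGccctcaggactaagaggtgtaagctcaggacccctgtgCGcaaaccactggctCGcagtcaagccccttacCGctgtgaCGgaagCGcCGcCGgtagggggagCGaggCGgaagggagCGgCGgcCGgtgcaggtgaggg
Tbx18: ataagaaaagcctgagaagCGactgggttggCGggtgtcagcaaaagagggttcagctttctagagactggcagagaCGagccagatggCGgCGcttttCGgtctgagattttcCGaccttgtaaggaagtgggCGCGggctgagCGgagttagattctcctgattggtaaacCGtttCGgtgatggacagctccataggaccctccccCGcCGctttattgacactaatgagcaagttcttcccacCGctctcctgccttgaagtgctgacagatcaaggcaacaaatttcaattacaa
Tbx20: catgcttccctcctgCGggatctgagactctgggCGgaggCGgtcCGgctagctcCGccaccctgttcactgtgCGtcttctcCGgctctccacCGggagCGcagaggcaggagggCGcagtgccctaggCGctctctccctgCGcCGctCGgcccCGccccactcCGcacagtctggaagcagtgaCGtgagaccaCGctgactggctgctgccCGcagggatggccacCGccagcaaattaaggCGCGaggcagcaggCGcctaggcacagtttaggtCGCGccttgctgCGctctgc
The windows hold 8 CpG in Tbx4, 16 in Tbx1, 15 in Tbx18 and 26 in Tbx20, against a median of 7 and quartiles of 3 and 20 over 32851 windows of this length. A second RefSeq start of Tbx1 (chr16:18588850-18589149) holds 26. GC content was 59.0% in Tbx4, 58.3% in Tbx1, 51.7% in Tbx18 and 68.3% in Tbx20, with a median of 52.7% over all windows. The transcription start in the Tbx4 window lies 10343 bases downstream of the GENCODE gene start, inside the gene, so its CpG count does not describe the GENCODE start. The T-box half-site core GGTGTGA, searched on both strands (TCACACC on the other), occurred in none of these 5 windows and in 3.98% of all windows, which says only that these letters are not there.

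Tbx4 and Tbx5, the activators that drive hindlimb and forelimb outgrowth, with Tbx5 also needed for the heart, had the largest differences among the genes that rose. Tbx4 (chromosome 11, 85886422 to 85916097, mm10, + strand) had values of 9.78, 9.25 and 9.14 in PRC2 loss tumors 1 to 3, against 3.11, 3.11, 3.62, 1.23 and 1.70 in wildtype tumors 1 to 5. All wildtype tumors lay near the floor of the scale, and the lowest PRC2 loss tumor was 5.52 above the highest of them. The difference was 6.84 (SE 0.63) on the log2 scale, or 114-fold, with limma adjusted p = 0.000281. A fold is 2 raised to the log2 difference, and at such low wildtype values it depends on the unstated offset added before the log. Adding 16 on the linear scale gave a Tbx4 difference of 4.92. Tbx5 (chromosome 5, 119832668 to 119885219, + strand) had values of 6.94, 7.22 and 7.94 in PRC2 loss tumors, against 5.14, 3.29, 1.95, 3.46 and 0 in wildtype tumors. The groups did not overlap, although wildtype tumor 1 was 1.80 below the lowest PRC2 loss tumor and wildtype tumor 5 was listed at 0, the only 0 among the 8 genes. Tbx5 was 4.60 (SE 1.04) higher in PRC2 loss on the log2 scale (limma adjusted p = 0.0105), 2.80 with 16 added, and missed the threshold when tumors of one animal number were averaged (adjusted p = 0.0542).

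Tbx2 and Tbx3 are repressors of limb, mammary and heart development that are known to hold back cell cycle inhibitor genes. Tbx2 (chromosome 11, 85832551 to 85841948, + strand) had values of 10.43, 11.69 and 10.81 in PRC2 loss tumors, against 8.50, 9.34, 8.80, 8.01 and 7.80 in wildtype tumors. It was moderately expressed in all wildtype tumors and 5.62-fold higher in PRC2 loss, with a difference of 2.49 on the log2 scale (SE 0.40, limma adjusted p = 0.00245). Tbx3 (chromosome 5, 119670669 to 119684724, + strand) had values of 9.69, 10.26 and 10.14 in PRC2 loss tumors, against 9.66, 9.62, 11.09, 9.31 and 10.75 in wildtype tumors. The PRC2 loss values of Tbx3 lay inside the wildtype range. The Tbx3 difference was -0.06 (95% interval -1.02 to 0.90, limma adjusted p = 0.924), and its sign turned to 0.55 under housekeeping centring (adjusted p = 0.321). The antisense gene Tbx3os1 overlaps Tbx3 and strand use in counting is not stated, so their reads may not be told apart, and the same limit holds for Tbx15, which overlaps Gm43120, and Tbx18, which overlaps D030062O11Rik; Tbx3os1 averaged 5.14 ± 0.88 in the 3 PRC2 loss tumors and 4.51 ± 1.12 in the 5 wildtype tumors (SD). The neighbouring noncoding gene Tbx3os2 fell to 0.33, 0 and 0 in PRC2 loss tumors, against 1.22 to 2.88 in wildtype tumors (limma adjusted p = 0.0122), a call lost under housekeeping centring (0.064) and with animal numbers averaged (0.0513).

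Tbx15 and Tbx18 act in mesenchyme of the skeleton and skin, Tbx15 also in skeletal muscle and fat, and Tbx18 in the epicardium, ureter and pericytes. Tbx15 (chromosome 3, 99240381 to 99354259, + strand) had values of 11.36, 11.21 and 11.37 in PRC2 loss tumors, against 10.38, 8.92, 7.67, 6.43 and 7.66 in wildtype tumors. The PRC2 loss tumors were nearly equal, with an SD of 0.09, whereas the wildtype tumors spread over 3.95 and wildtype tumor 1 came within 0.84 of the lowest PRC2 loss tumor. Tbx15 was 3.11 (SE 0.76) higher on the log2 scale, or 8.60-fold (limma adjusted p = 0.0145). Tbx18 (chromosome 9, 87702800 to 87731260, - strand) had values of 9.89, 10.14 and 10.01 in PRC2 loss tumors, against 9.34, 7.46, 7.05, 7.77 and 9.20 in wildtype tumors. Wildtype tumors 1 and 5 stood close to the PRC2 loss tumors for Tbx18, with a gap of 0.55 between the groups. Its difference of 1.85 (SE 0.54, 3.61-fold, limma adjusted p = 0.0292) was the smallest of the 6 calls, and the one most often lost: 8 of 23 alternative settings put it above the threshold, among them animal numbers averaged (adjusted p = 0.0872), the omission of any 1 PRC2 loss tumor (0.0757 to 0.092) and the omission of wildtype tumor 4 (0.0589). The Tbx15 call was lost without PRC2 loss tumor 1 (adjusted p = 0.052) or 3 (0.0525).

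Tbx1, the pharyngeal arch and inner ear factor, had values of 7.84, 8.54 and 8.91 in PRC2 loss tumors, against 5.65, 6.70, 6.30, 6.05 and 6.30 in wildtype tumors (chromosome 16, 18580979 to 18590671, - strand). Every PRC2 loss tumor was at least 1.14 above every wildtype tumor. The difference of 2.23 (SE 0.36) on the log2 scale was 4.69-fold, with limma adjusted p = 0.00231, and the call held in all 22 alternative settings in which Tbx1 was tested, as it did for Tbx4 in 22 and for Tbx2 in 23. Tbx20, a heart chamber and motor neuron factor (chromosome 9, 24718138 to 24774303, - strand), had values of 9.36, 9.77 and 9.58 in PRC2 loss tumors, against 3.11, 2.87, 5.80, 11.27 and 3.94 in wildtype tumors. The PRC2 loss tumors were alike, and wildtype tumor 4 was above all of them while the other 4 wildtype tumors were far below. With all tumors Tbx20 did not pass the test (difference 4.17, 95% interval 0.13 to 8.22, limma adjusted p = 0.0994). Without wildtype tumor 4 the difference was 5.64 (adjusted p = 0.00225), and it was also past the threshold under housekeeping centring (0.0426). Wildtype tumor 3, which shares the animal number of wildtype tumor 4, had a Tbx20 value of 5.80. The cardiac factors Gata4, Hand2 and Isl1 were listed at 0 in wildtype tumor 4, but also in wildtype tumors 2 and 3. Isl1 was named after its values were seen. The source of the high Tbx20 value was not tested.

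Two-sided exact permutation tests over the 56 splits of the tumors into 3 and 5 gave p = 0.0179 for Tbx1, Tbx2, Tbx4 and Tbx5, the smallest value 56 splits allow. The exact permutation p was 0.0357 for Tbx15 and Tbx18, 0.143 for Tbx20 and 0.946 for Tbx3.

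Per kilobase of annotated exon, Tbx15 and Tbx2 had the highest levels of the 8 in PRC2 loss tumors, at 9.41 ± 0.09 and 9.12 ± 0.65 (log2 value per kilobase, SD, n = 3), and their ranges overlapped. Tbx18 (7.78 ± 0.13), Tbx4 (7.62 ± 0.34), Tbx3 (7.30 ± 0.30), Tbx1 (6.62 ± 0.54) and Tbx20 (5.98 ± 0.21) followed, each overlapping the next in range. Tbx5 was last at 5.14 ± 0.52, below Tbx20 in every tumor. In wildtype tumors Tbx3 led at 7.36 ± 0.78 (log2 per kilobase, SD, n = 5), followed by Tbx2 (6.63 ± 0.62), Tbx15 (6.30 ± 1.5), Tbx18 (5.93 ± 1.05), Tbx1 (4.39 ± 0.38) and Tbx20 (1.81 ± 3.48), with Tbx4 (0.79 ± 1.03) and Tbx5 (0.54 ± 1.92) at the bottom. Every gene overlapped the next in this order. Tbx3 thus held the first place in wildtype and the fifth in PRC2 loss tumors. Exon length is the union of annotated exons and need not match the authors' annotation. The wildtype SD was the larger one for 6 of the 8 genes, against 60.1% of all genes.

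In the linked pairs, the member that was lower in wildtype tumors differed by more than its partner: by log2 differences of 6.84 for Tbx4 and 2.49 for Tbx2, which lie 44.5 kb apart, and of 4.60 for Tbx5 and -0.06 for Tbx3, which lie 148 kb apart. This gap between partners was not tested. The wildtype mean enters both the order of the partners and their differences, so order and difference are not independent. The nearest measured protein-coding genes on each side of the 8 genes, members apart, were 12 in number. Of these, 3 were called higher, 2 lower and 7 did not pass, with a median log2 difference of 0.23. Shares over all genes tested were 16% higher and 19.6% lower, and no pattern particular to the neighbours is read from counts this small. Bcas3, 6.49 kb from Tbx2, rose by 0.77 (limma adjusted p = 0.00625), and Brip1, a DNA repair helicase gene 142 kb from Tbx4, fell by 3.52 (adjusted p = 0.000956). Wars2, 1.20 kb from Tbx15, differed by -0.04 (adjusted p = 0.871), whereas Spag17, a cilium gene on the other side at 531 kb, averaged 7.46 in PRC2 loss and 0.46 in wildtype tumors (adjusted p = 0.000281). Gp1bb near Tbx1 rose by 1.89 (adjusted p = 0.0495), but its groups overlapped, with wildtype tumor 2 at 7.13 and PRC2 loss tumor 3 at 6.98. Cep162 near Tbx18 fell by 0.58 (adjusted p = 0.0405).

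**Figure D2:**
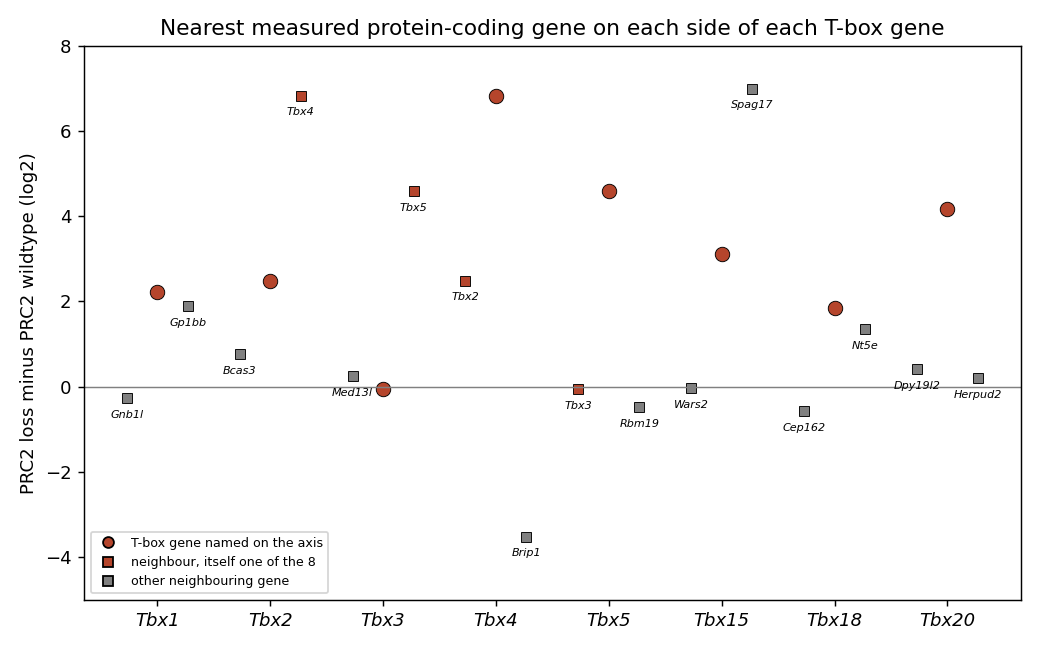
Log2 difference, PRC2 loss minus PRC2 wildtype (vertical axis), of each T-box gene (circle) and of the nearest measured protein-coding gene on its lower-coordinate side (square to the left) and higher-coordinate side (square to the right). Red squares are neighbours that are themselves T-box genes; Tbx4 at 6.84 stands between Tbx2 at 2.49 and Brip1 at -3.52.

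Of the other 9 T-box genes in the table, 3 rose and 2 fell in PRC2 loss tumors (16% and 19.6% over all genes tested). The remaining 4 did not pass the test, and the median log2 difference of the 9 was 0.89. Under housekeeping centring 7 rose and 1 fell. Those that rose were low throughout. Tbx22, a palate factor, had 4.48, 2.45 and 3.42 in PRC2 loss tumors and was listed at 0 in all 5 wildtype tumors (limma adjusted p = 0.000783). Tbx19, a pituitary factor, averaged 3.92 ± 1.16 in the 3 PRC2 loss tumors and 0.46 ± 0.63 in the 5 wildtype tumors (SD) (adjusted p = 0.0027). T, or Brachyury, the mesoderm and notochord factor, averaged 2.94 ± 0.38 in PRC2 loss and 1.01 ± 0.96 in wildtype tumors (adjusted p = 0.0268, and 0.0509 with animal numbers averaged). Eomes and Tbx21, which in lymphoid cells direct T and NK cell effector programs, were the ones that fell. Eomes averaged 4.50 ± 0.95 in PRC2 loss and 7.79 ± 0.54 in wildtype tumors (adjusted p = 0.002), and Tbx21 averaged 3.83 ± 0.93 in PRC2 loss and 6.07 ± 0.84 in wildtype tumors (adjusted p = 0.0256), a call lost under housekeeping centring (0.0666) and with animal numbers averaged (0.0713). Among the 8 markers of T and NK cells, 6 fell (4 under housekeeping centring and 3 with animal numbers averaged) and 0 rose, also at an unadjusted p under 0.05; their mean ran from 3.88 to 5.59 in PRC2 loss and from 6.78 to 8.43 in wildtype tumors, and their part in the Eomes and Tbx21 values was not tested. Tbr1 (5.02 ± 0.84 in PRC2 loss and 2.71 ± 1.5 in wildtype tumors, adjusted p = 0.0721), Tbx6, Tbx10 and Mga did not pass.

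**Figure D3:**
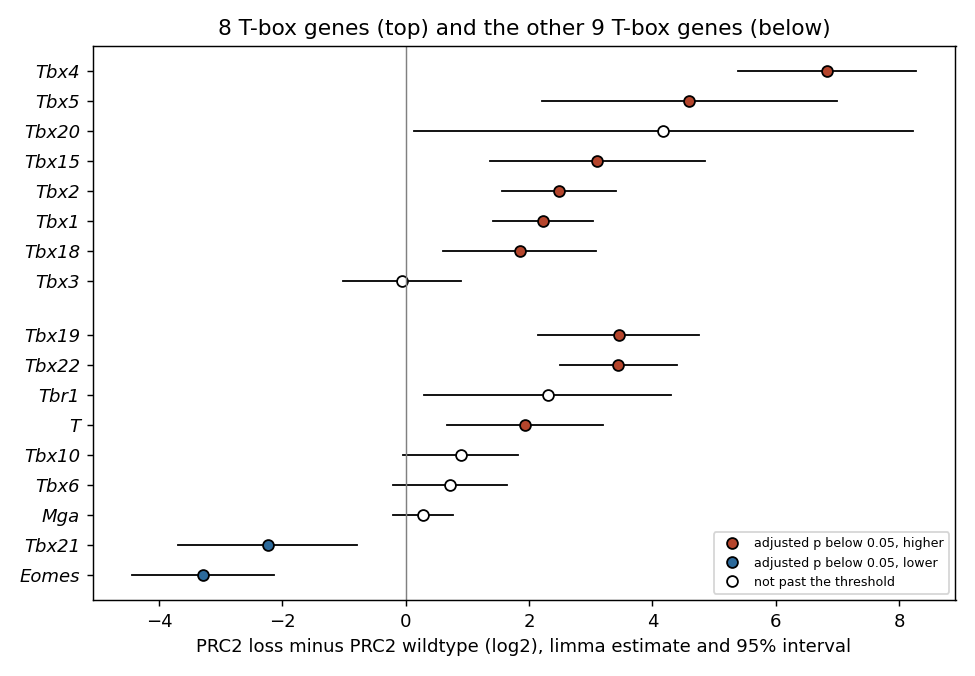
Log2 difference, PRC2 loss minus PRC2 wildtype (horizontal axis), with its 95% interval from limma, for the 8 T-box genes above and the other 9 below. Red marks genes called higher, blue marks genes called lower, and open circles did not pass; Eomes and Tbx21 are the only blue ones.

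Known partners and targets of T-box factors moved in part. Shares over all genes tested were 16% higher and 19.6% lower. With housekeeping centring 7685 of all 20807 genes were called higher and 1588 lower. Under housekeeping centring the counts of the lists below were 10 higher and 2 lower for limb bud genes, 10 and 3 for cardiac, 8 and 1 for pharyngeal, 7 and 1 for growth control and 9 and 0 for cofactor genes. Of 16 limb bud partners and targets 9 rose and 2 fell, with a median log2 difference of 3.69. Shh, the ligand that patterns the limb bud, had 7.59, 9.12 and 5.73 in PRC2 loss tumors and was listed at 0 in every wildtype tumor (limma adjusted p = 0.000253). The zinc finger factor genes Sall1 and Sall4, of which Sall4 is a known target and partner of Tbx5, rose by 6.34 and 4.81 (adjusted p = 0.000434 and 0.000691). The 2 that fell, named after their values were seen, were Fgf10, a target of Tbx4 and Tbx5 in limb mesenchyme (6.56 ± 2.45 in PRC2 loss and 9.75 ± 0.96 in wildtype tumors, adjusted p = 0.0383), and the BMP antagonist gene Grem1 (2.12 ± 0.66 in PRC2 loss and 8.44 ± 1.67 in wildtype tumors, adjusted p = 0.00161). The Fgf10 groups overlapped and its call was lost with animal numbers averaged (0.0721). Pitx1, the hindlimb factor upstream of Tbx4 and also named after its values were seen, had 7.56, 8.92 and 7.41 in PRC2 loss tumors, against 1.63, 5.48, 0, 0 and 0 in wildtype tumors (adjusted p = 0.00569).

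Of 19 cardiac partners and targets 6 rose and 3 fell (median log2 difference 1.32). Gata4, the zinc finger partner of Tbx5 and Tbx20, had 9.20, 9.23 and 8.87 in PRC2 loss tumors, against 2.05 in wildtype tumor 1 and 0 in the other 4 (limma adjusted p = 8.66e-05). Hand2 had 8.11, 6.06 and 5.10 in PRC2 loss tumors, against 1.63 in wildtype tumor 1 and 0 in the others (adjusted p = 0.000732), and the pacemaker channel gene Hcn4 rose by 4.62 (adjusted p = 0.00688). Gata5 rose only to a mean of 1.32, against 0 in all wildtype tumors (adjusted p = 0.00259). The 3 that fell, named after their values were seen, were Nppb, Gja1 and Bmp2, with log2 differences of -5.13, -1.84 and -2.83; Nppb missed the threshold with animal numbers averaged (0.0549). Nppb and Gja1 are among the genes that Tbx2 or Tbx3 are known to repress in the heart. Nkx2-5, the homeobox partner of Tbx5, did not pass (2.64 ± 2.67 in PRC2 loss and 0.24 ± 0.53 in wildtype tumors, adjusted p = 0.0951).

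Of 15 pharyngeal and ear partners of Tbx1, 4 rose and 1, Fgf10, fell (median log2 difference 0.11). The forkhead genes Foxc1 and Foxa2, which lie upstream of Tbx1 in the pharynx, rose by 2.57 and 5.12, and the homeobox gene Dlx5 by 4.59 (limma adjusted p from 0.000326 to 0.00146). Of 10 growth control genes, most of them described as targets of Tbx2 or Tbx3, 5 rose and 1, Cdkn2b, named after its values were seen, fell (median log2 difference 0.93). The CDK inhibitor genes Cdkn1a and Cdkn1c rose by 1.78 and 4.92, and the differentiation gene Ndrg1 by 3.42 (limma adjusted p from 0.000122 to 0.000624). The epithelial cadherin gene Cdh1, described as repressed by Tbx2 and Tbx3, averaged 10.04 ± 0.25 in PRC2 loss and 8.48 ± 0.70 in wildtype tumors (adjusted p = 0.0144, named after its values were seen).

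Of 15 T-box cofactors 3 rose and 4 fell (median log2 difference 0.29), near the shares over all genes tested, 16% higher and 19.6% lower. Gata4 and Sall4 were described above, and the corepressor gene Tle3 rose by 1.05 (limma adjusted p = 0.00434). Smarca4, the BAF complex ATPase gene, had a difference of -0.73 (adjusted p = 0.00651), and Wwtr1, Hdac1 and Hdac2, named after their values were seen, differed by -0.71, -0.38 and -0.70 (adjusted p from 0.0318 to 0.046). None of these 4 falls held under housekeeping centring, where Smarca4 differed by -0.13 (adjusted p = 0.429) and Hdac1 by 0.22 (0.203).

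Over the 8 tumors, after each gene was centred on its own mean, the genes nearest to each T-box gene that rose were found among 10232 genes at or above the median mean, with predicted and clone-named gene models (such as Gm and Rik names) left out. Tbx1 lay nearest to Trim68 and Nrbp2, with root mean square distances of 0.32 and 0.33 on the log2 scale, and Tbx2 to Arhgap33 and Galnt18 (0.33 and 0.34). Daam2 was among the nearest to Tbx15 (0.48), and Tbx18 lay nearest to Prr5 and Chst1 (0.48 and 0.50). For Tbx4 they were Sult5a1 and Mal, a myelin proteolipid gene (0.55 and 0.84), and for Tbx5 Ntrk2, the neurotrophin receptor gene, and Rcan2 (0.60 and 0.75). The 8 tumors fall into 2 groups and some share an animal number.

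The tumors also differed in cell type markers, whose part in the T-box values was not tested unless stated. Shares over all genes tested were 16% higher and 19.6% lower. Of 9 markers of myelinating Schwann cells 9 rose, with a list mean of 12.96 to 13.64 in PRC2 loss and 6.79 to 8.60 in wildtype tumors. Of 9 Schwann lineage markers 5 rose (1 with animal numbers averaged) and 1, Sox2, fell, and none was listed at 0 in any tumor. Sox10 did not pass, and its groups overlapped. It averaged 12.25 ± 0.28 in PRC2 loss and 9.42 ± 2.63 in wildtype tumors (limma adjusted p = 0.132). Of 9 pericyte markers, cells that are known to express Tbx18, 3 rose (Rgs5, Notch3 and Ndufa4l2) and 0 fell, also at an unadjusted p under 0.05, with list means of 10.65 to 12.08 in PRC2 loss and 9.24 to 10.48 in wildtype tumors. Endothelial markers rose in 8 of 9, perineurial markers in 5 of 7 (3 with animal numbers averaged) and smooth muscle markers in 3 of 7 (1 with animal numbers averaged). PRC2 loss tumor 3 had the highest pericyte and smooth muscle means (12.08 and 11.64). The Tbx18 values of the PRC2 loss tumors spanned only 0.25, and whether they follow these markers was not tested. Of 7 cardiac muscle markers 1, Tnnt2, rose, and the heart muscle markers Myh6 and Myl7 were at or near 0 in both groups, with means of 0.06 and 0.33 in PRC2 loss and 0.24 and 0.95 in wildtype tumors. Of 6 mesothelial markers 2 rose, Wt1 and Tcf21, and Upk3b was near 0 in both groups. The 7 endoneurial fibroblast markers included 1 that rose, Abca9, and 0 of 5 lymphatic markers passed, adjusted or not. Of 8 macrophage markers 1 rose and 5 fell (3 with animal numbers averaged or under housekeeping centring).

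Skeletal muscle and fat, tissues in which Tbx15 is active, varied between tumors rather than between groups. The mean of 10 skeletal muscle markers was 3.77, 5.39 and 7.90 in PRC2 loss tumors 1 to 3, against 11.21, 10.83, 3.70, 5.08 and 4.37 in wildtype tumors 1 to 5, and 0 of the 10 passed the test (limma), also at an unadjusted p under 0.05. Wildtype tumors 1 and 2, highest in muscle markers, were also the highest wildtype tumors for Tbx15. These tumors were the highest of the wildtype group in other lists too, among them Schwann lineage markers. The mean of that list was 10.68 and 10.68 in wildtype tumors 1 and 2, against 8.73, 7.94 and 7.11 in wildtype tumors 3 to 5. It ran from 11.49 to 12.15 in PRC2 loss tumors, and its part in the Tbx15 values was not tested. With the muscle mean as a covariate the Tbx15 difference was 3.51 (limma adjusted p = 0.00176), and without wildtype tumors 1 and 2 it was 4.07 (adjusted p = 0.000543). The mean of 7 adipocyte markers was 3.66, 5.76 and 8.37 in PRC2 loss tumors, against 9.59, 4.82, 10.13, 7.18 and 4.16 in wildtype tumors, with 0 of 7 past the test, adjusted or not. Tbx15 spanned 0.16 at most among the PRC2 loss tumors.

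**Figure D4:**
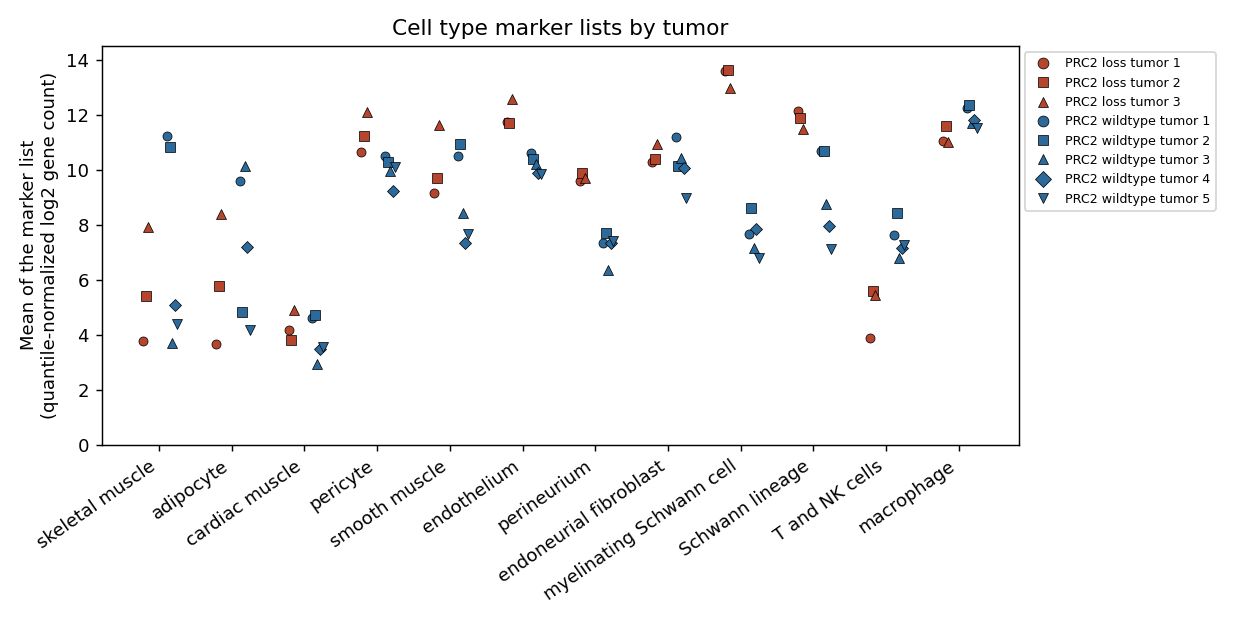
Mean quantile-normalized log2 gene count of each cell type marker list (vertical axis) in every tumor, with PRC2 loss tumors in red left of PRC2 wildtype tumors in blue. Myelinating Schwann cell means lie between 12.96 and 13.64 in PRC2 loss and between 6.79 and 8.60 in wildtype tumors, whereas skeletal muscle means of the groups overlap.

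As a check of the labels, Eed averaged 8.89 ± 0.11 in the 3 PRC2 loss tumors and 10.25 ± 0.08 in the 5 wildtype tumors (SD, limma adjusted p = 0.00021). A fall of this size was not particular to Eed. With animal numbers averaged Eed differed by -1.39, the housekeeping genes Pgk1 and Actb by -1.45 and -1.31, and other housekeeping genes by less. Under housekeeping centring Eed differed by -0.76 (limma adjusted p = 0.00522), Ezh2 by -0.40 (0.204) and Suz12 by -0.18 (0.463). The other targeted genes, labelled (-/-) in both groups, were still detected, and which exons were removed is not given, so their levels do not check the labels. Cdkn2a had 10.58, 11.004 and 5.67 in PRC2 loss tumors 1 to 3, against 7.43 to 8.17 in wildtype tumors (limma adjusted p = 0.351), so PRC2 loss tumor 3 lay below and the other PRC2 loss tumors above all wildtype tumors. Nf1 averaged 11.29 in PRC2 loss and 11.11 in wildtype tumors (limma adjusted p = 0.452). The mean of Y-linked transcripts was 10.9 in PRC2 loss tumor 1 and 11 in wildtype tumor 5, and at most 2.18, in wildtype tumor 4, among the other 6. Without these tumors 4 T-box genes were called higher, since Tbx15 (adjusted p = 0.0923) and Tbx18 (0.0564) missed the threshold with 2 tumors against 4.

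**Figure D5:**
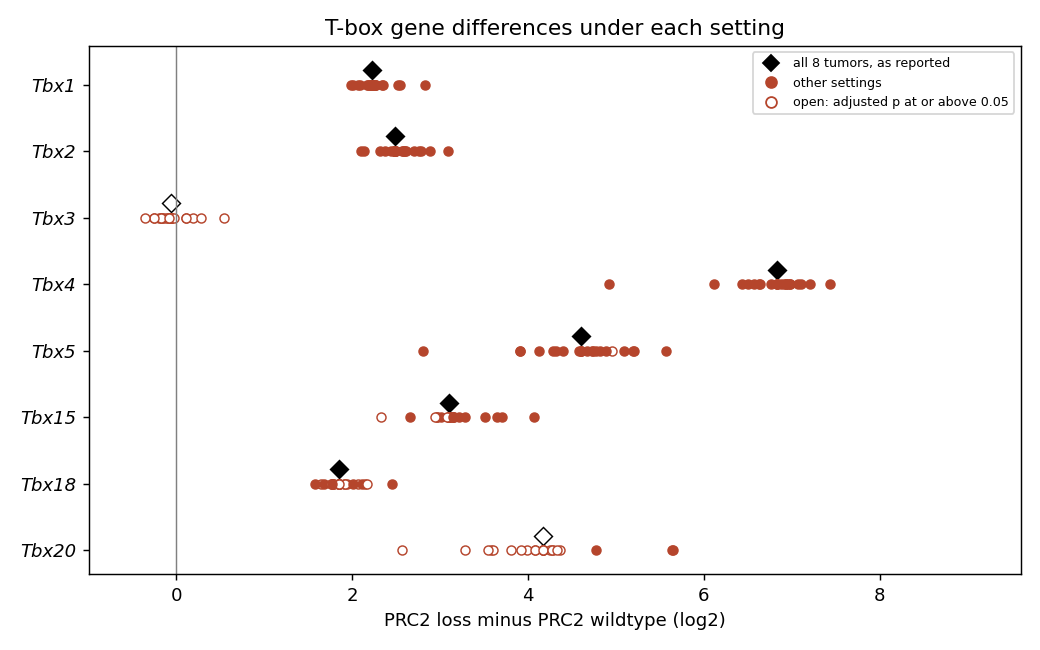
Log2 difference, PRC2 loss minus PRC2 wildtype (horizontal axis), of each T-box gene with all 8 tumors (black diamond) and under each other setting (red circles); open symbols have an adjusted p at or above 0.05. Tbx1, Tbx2 and Tbx4 are filled throughout, Tbx3 lies on both sides of 0, and Tbx20 is open in all but 3 other settings.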

How the data were processed

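RNA was extracted with Trizol and made into TruSeq poly-A libraries, per the labels' protocols. Trim Galore, STAR 2.6, Partek 7.0 and mm10 are named in the submitters' processing notes, without role or order; how genes were annotated, counted and filtered, and whether strand was used, is not stated there. The authors deposited quantile-normalized log2 gene counts for 20943 genes. Such values hold no library totals, so depth is unknown and no counting interval is given.

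Tumors were grouped by title and columns matched by description. Nothing says that tumors of 1 animal number are independent. After 136 constant genes were dropped, limma 3.58.1 (R 4.3.3) with a trended prior was fitted to 20807 genes, two-sided, Benjamini-Hochberg adjusted, threshold 0.05, with no pseudocount. Alternatives were filters, pseudocounts of 1 and 16, priors, array weights, housekeeping centring, animal and replicate blocks, a muscle covariate and omitted tumors.

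The members and lists were chosen with earlier results of these data known. Named genes were the 8, the other T-box genes, genome neighbours, up to 4 genes a list by smallest p and then by highest mean, and the 2 nearest by pattern; exceptions are marked. Gene positions are from GENCODE M21 (mm10), promoters from RefSeq GRCm38.p6. Some genes that this rule names are not reported here.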

Additional observations from a re-analysis of the deposited data

Results flagged for a closer look

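In the wildtype group, 1 of 5 tumors stood apart from the rest for 3 of 39 genes checked, by a gap over 0.71 of the group's range. All were wildtype tumor 1 at a low value with the other 4 at 0: Gata4 at 2.05, Hand2 at 1.63 and Tbx10 at 1.13. Chance flags about 1 in 20 groups of normally spread values. That rate does not hold here, since with the other 4 tumors tied at 0 any value above 0 is flagged. Tbx20 in wildtype tumor 4 had a gap of 0.651 of the range and was not among them.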

How the results depend on the processing

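With all 8 tumors 7424 genes differed and 6 of the 8 T-box genes were called higher, and the counts below are of these 8. The count over all genes was 4248 among genes at or above the median mean, 4226 with animal numbers averaged and 4623 without the tumors with Y-linked transcripts, a setting chosen after seeing the data, as were omitting wildtype tumors 1 and 2 and the Y-linked covariate. Under that filter 3 of the 4 T-box genes still tested were called higher; Tbx1, Tbx4, Tbx5 and Tbx20 were not tested there. No alternative called any of the 8 T-box genes lower (limma), nor did any of them fall at an unadjusted p under 0.05 with all tumors. With 1 tumor left out, the count over all genes ran from 5528 to 7697 and the count of T-box genes called higher from 4 to 6. Replicate numbers did not pair the tumors: deviations of same-numbered tumors correlated at -0.155, 0.0945 and -0.0482. The replicate block gave 1903 genes and 4 T-box genes called higher, without Tbx5 (adjusted p = 0.085), Tbx15 (0.0863) and Tbx18 (0.102) and with Tbx20 (0.0424). The Tbx3 difference, never past the threshold, ran from -0.25 to 0.19 with 1 tumor left out and turned positive without PRC2 loss tumor 1 (0.11), wildtype tumor 3 (0.19) or wildtype tumor 5 (0.11), under housekeeping centring (0.55), and without the tumors with Y-linked transcripts (0.28). With animal number as a random block Tbx18 missed the threshold (adjusted p = 0.0719). The cause of these changes was not tested. Unknown depth limits the low wildtype values of Tbx4 and Tbx5.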
